A study of Arabidopsis thaliana with 6 samples.

Results

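The TRICHOME BIREFRINGENCE-LIKE (TBL) genes of Arabidopsis thaliana encode a family of membrane proteins of the secretory pathway. The members studied so far mostly transfer acetyl groups onto polysaccharides of the plant cell wall. The 22 TBL genes described here are those whose symbol, in the probe table given with the series, is TBL followed by a number. Each has 1 probe set (the group of probes that reads 1 transcript), so no choice among probe sets was needed. They are 22 of 13356 genes with a single gene name and 22 of the 22746 probe sets tested. The gene table lists 45 genes with a TBL number, 41 of them under a TBL symbol and 4 under another name. Of the 23 outside the rule, TBL40 is given beside its numbered neighbours and 22, ESK1 among them, were not analysed here.

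RNA came from leaves of 15-day-old plants grown untreated at 21 °C with 16 h of light and 8 h of dark. The 2 genotypes were the double mutant chr11-1 chr17-1, on 3 ATH1 arrays, and wild type Col-0, also on 3 arrays. CHR11 and CHR17 encode ISWI-type ATPases, enzymes that move nucleosomes along DNA. The labels describe neither allele further, and leave unsaid whether replicate arrays came from separate plants. Every p-value below therefore rests on the spread among replicate arrays, which may be technical, and 3 arrays a genotype limit the precision. The comparison asks which transcripts of the family have another level in double-mutant leaves than in wild-type leaves.

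Acetyl groups sit on several wall polymers, and the family is divided by the polymer served. ESK1 (TBL29), TBL3, TBL28 and TBL30 to TBL35 act on xylan, the main hemicellulose of xylem and fibre walls. TBL23 to TBL26 act on mannan, and TBL27 and TBL22 on xyloglucan, the main hemicellulose of growing walls. The acetyl groups change how chains pack against cellulose and how readily enzymes digest them. The founding gene of the family, TBR, is named for mutant leaf hairs that lose birefringence under polarised light, a sign of less crystalline cellulose.

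Leaves of the double mutant had far higher levels of TBL38 and TBL37 than wild-type leaves, and smaller rises of TBL26 and TBL39. TBL45 fell by about as much, on the log2 scale, as TBL26 rose. The other 17 members did not pass the test. In all, 4 of 22 were higher and 1 was lower at a limma adjusted p below 0.05, which is 22.7% of the family. Over all probe sets 28.6% passed, 14.0% higher and 14.7% lower, and over genes with a single name 25.6% passed. The share of the family that passed is thus near the background. Changes of at least 2-fold were seen in 2 members, against 5.02% of all probe sets. In RNA of whole leaves, more or fewer cells that express a gene cannot be told apart from more or less of its RNA per cell.

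**Figure D1:**
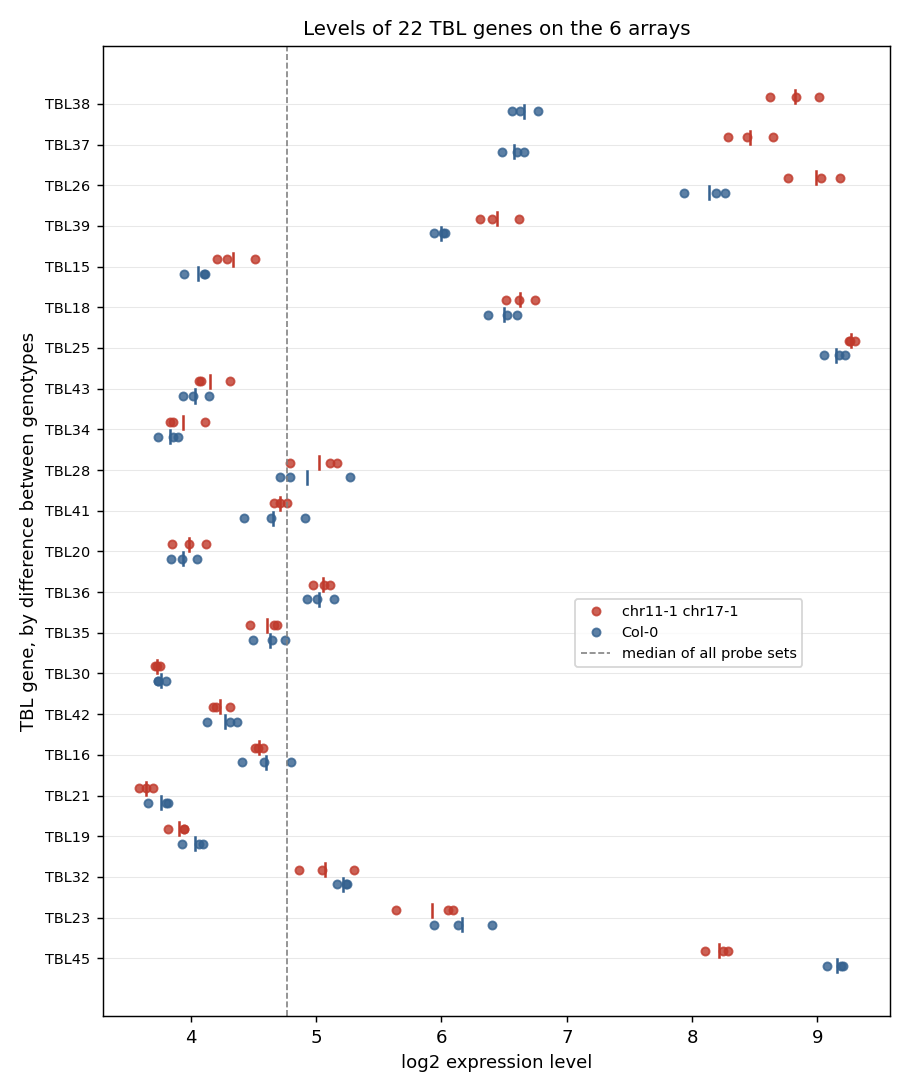
Log2 expression level (x axis) of the 22 TBL genes (y axis, ordered by the difference between genotypes) on each of the 3 chr11-1 chr17-1 arrays (red, upper points of a row) and 3 Col-0 arrays (blue, lower points). Short vertical bars are means and the dashed line is the median of all probe sets. TBL38, TBL37, TBL26 and TBL39 lie higher in the mutant with no overlap, and TBL45 lies lower with no overlap. TBL15 and TBL25 also lie higher with no overlap but did not pass the test.

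TBL38 had the largest difference in the family. Its protein has been described as an unusual pectin acetylesterase of seed coat cells, which removes acetyl groups from homogalacturonan. The log2 level of TBL38 was 8.62, 8.83 and 9.01 in the 3 mutant arrays, against 6.77, 6.63 and 6.57 in the 3 wild-type arrays. The lowest mutant array thus lay well above the highest wild-type array. The group means were 8.82 ± 0.19 in the mutant and 6.65 ± 0.10 in wild type (SD, n = 3 each). The log2 difference was 2.17 (SE 0.11), a 4.49-fold higher signal (limma, Benjamini-Hochberg adjusted p = 4.94e-07). Of all probe sets tested, 97 had a rise at least this large, that of TBL38 included.

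TBL37 came next, with log2 levels of 8.44, 8.29 and 8.65 in the mutant, against 6.61, 6.48 and 6.66 in wild type. The genotypes did not overlap, and the spread within each was small beside the gap between them. The means were 8.46 ± 0.18 in the mutant and 6.58 ± 0.09 in wild type (SD, n = 3 each), a log2 difference of 1.88 (SE 0.11) or 3.67-fold. Its limma adjusted p was 9.83e-07.

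TBL37, TBL38 and TBL39 are read together by number alone, a grouping that was not set in advance. They are not next to each other in gene order. The log2 level of TBL39 was 6.31, 6.40 and 6.62 in the mutant, against 6.01, 5.94 and 6.03 in wild type. All 3 mutant arrays lay above the wild-type arrays, and mutant replicate 3 was the highest of the 6 for TBL37, TBL38 and TBL39 alike. The log2 difference was 0.45 (SE 0.10), or 1.36-fold (limma adjusted p = 0.00679). Of all probe sets tested, 2312 had a rise at least this large, that of TBL39 included. Of the 64 Affymetrix control probe sets, 6 had a mutant minus wild-type difference at least as large. The median over the controls was 0.22, and 56 of the 64 had a higher mean in the mutant. None of the 64 reached the difference of TBL26, and the highest was 0.69. The part of this shift of the controls in the TBL39 result, or in the other rises below 0.69 given here, was not tested.

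TBL40 falls outside the naming rule, since the probe table gives it by its locus code, AT2G31110. It was added after the values of its numbered neighbours had been seen. Its first probe set read 5.65, 5.67 and 5.73 in the mutant, against 5.55, 5.13 and 4.85 in wild type. Its second read 6.86, 6.16 and 6.60 in the mutant, against 5.86, 5.51 and 5.64 in wild type. Both probe sets were higher in all 3 mutant arrays, with log2 differences of 0.51 (SE 0.15, limma adjusted p = 0.0279) and 0.87 (SE 0.16, limma adjusted p = 0.00238). The first probe set missed the threshold when some of the arrays were left out singly, and passed when others were. Its difference was 0.52 (limma adjusted p = 0.0713) with mutant replicate 2 omitted and 0.49 (0.0775) with mutant replicate 3 omitted. With wild-type replicate 2 omitted it was 0.49 (0.0926), and with wild-type replicate 3 omitted 0.35 (0.0999). It passed at 0.70 (limma adjusted p = 0.00154) with wild-type replicate 1 omitted and at 0.53 (0.0467) with mutant replicate 1 omitted.

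The next members by number did not pass. TBL41 had a log2 difference of 0.06, TBL42 of -0.04 and TBL43 of 0.12, with limma adjusted p from 0.488 to 0.834. TBL36, numbered just below TBL37, had 0.03. The mean log2 levels of these 4 over the 6 arrays were 4.09 to 5.04, near or below the array medians of 4.74 to 4.78.

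**Figure D2:**
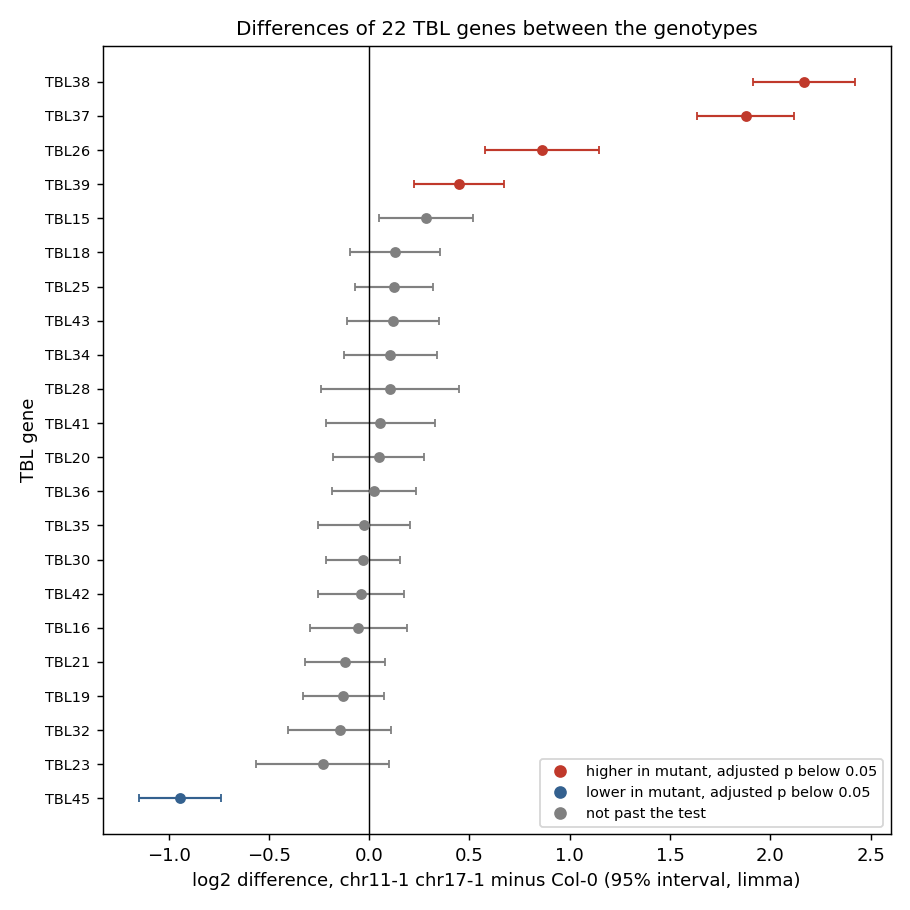
Log2 difference between chr11-1 chr17-1 and Col-0 (x axis, mutant minus wild type) for each of the 22 TBL genes (y axis), with the 95% interval from limma as a bar. TBL38 (2.17), TBL37 (1.88), TBL26 (0.86) and TBL39 (0.45) are higher and TBL45 (-0.94) is lower at an adjusted p below 0.05; the intervals of the other 17 lie between -0.56 and 0.52.

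Of the 3 measured mannan acetyltransferase genes, TBL26 rose, and TBL25 and TBL23 did not pass. TBL26 had log2 levels of 9.03, 9.18 and 8.77 in the mutant, against 7.94, 8.26 and 8.19 in wild type. The genotypes did not overlap, and the difference of 0.86 (SE 0.13) was a 1.82-fold rise (limma adjusted p = 0.000524). TBL25 had the highest mean level of the family, with 9.30, 9.26 and 9.26 in the mutant and 9.05, 9.22 and 9.17 in wild type. Its mutant arrays all lay just above its wild-type arrays, yet the difference of 0.12 did not pass (limma adjusted p = 0.379, 95% interval -0.07 to 0.32). TBL23 had 6.09, 5.64 and 6.05 in the mutant and 5.94, 6.41 and 6.13 in wild type. Its genotypes overlapped, and its difference of -0.23 did not pass (limma adjusted p = 0.319, 95% interval -0.56 to 0.10).

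None of the 5 measured xylan acetyltransferase genes passed limma, and none had an unadjusted p below 0.05. Their log2 differences ran from -0.15 for TBL32 to 0.11 for TBL34, with TBL28 at 0.10, TBL35 at -0.03 and TBL30 at -0.03. Their levels ran from percentile 13.0 of all probe sets for TBL30 to 55.2 for TBL32, and TBL28 and TBL32 lay just above the middle of the array. TBL30 had 3.75, 3.71 and 3.73 in the mutant and 3.74, 3.74 and 3.81 in wild type, among the lowest readings in the family. TBL28 read 5.11, 4.79 and 5.17 in the mutant and 4.79, 5.27 and 4.71 in wild type, so its arrays were spread more widely within a genotype than between them. The TBL32 probe set carries a suffix that marks possible cross-hybridisation. TBL28 and TBL30 are next to each other in gene order. The 95% intervals were -0.24 to 0.45 for TBL28 and -0.40 to 0.11 for TBL32. At the low signals of TBL30, TBL34 and TBL35, whether these transcripts were unchanged cannot be seen.

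TBL45 was the single member that fell. It read 8.24, 8.29 and 8.10 in the mutant, against 9.21, 9.08 and 9.19 in wild type, with no overlap. The means were 8.21 ± 0.10 in the mutant and 9.16 ± 0.07 in wild type (SD, n = 3 each), a log2 difference of -0.94 (SE 0.09), or 1.92-fold lower in the mutant (limma adjusted p = 3.33e-05). No substrate is given here for TBL45 or for the members that follow.

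TBL15 came closest to the threshold without passing it. It had 4.29, 4.51 and 4.21 in the mutant and 3.94, 4.11 and 4.11 in wild type. The genotypes did not overlap, and the log2 difference was 0.28 (SE 0.11, limma adjusted p = 0.074, range over the alternatives 0.05001 to 0.257). TBL18 had 6.75, 6.51 and 6.62 in the mutant and 6.37, 6.60 and 6.52 in wild type, with overlap and a difference of 0.13. TBL16 had -0.05, TBL20 had 0.05, and the neighbours in gene order TBL19 and TBL21 had -0.13 and -0.12. TBL21 was the dimmest member, with 3.58, 3.64 and 3.70 in the mutant and 3.82, 3.80 and 3.66 in wild type.

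Among the 17 members that did not pass, differences were positive in 9 and negative in 8, from -0.23 to 0.28. Their 95% intervals, which are not adjusted for the number of probe sets, had half-widths of 0.18 to 0.34. Changes smaller than these could not be seen here, and a larger change could also miss the adjusted threshold. TBL15 did so, with a 95% interval of 0.05 to 0.52 and a limma adjusted p of 0.074. The genotypes did not overlap in 7 of the 22 members, 6 higher and 1 lower, against 39.5% of all probe sets. The median log2 difference over the 22 was 0.05, and over all probe sets it was -0.0028. Over the 17 members kept when the dimmest 30% of probe sets were left out, the median was 0.10. The median absolute difference was 0.12 in the family and 0.15 over all probe sets.

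The members that changed were all among the brighter ones. Of the 11 members above the median level of all probe sets, 5 passed, and of the 11 members below it 0 passed in limma, with 1 (TBL15) at an unadjusted p below 0.05. Over the array 48.9% of probe sets above the median level passed and 8.30% of those below it. The dimmest member that passed was TBL39, at level percentile 67.1. The percentile describes array signal, since probe sets differ in brightness for the same amount of transcript.

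**Figure D3:**
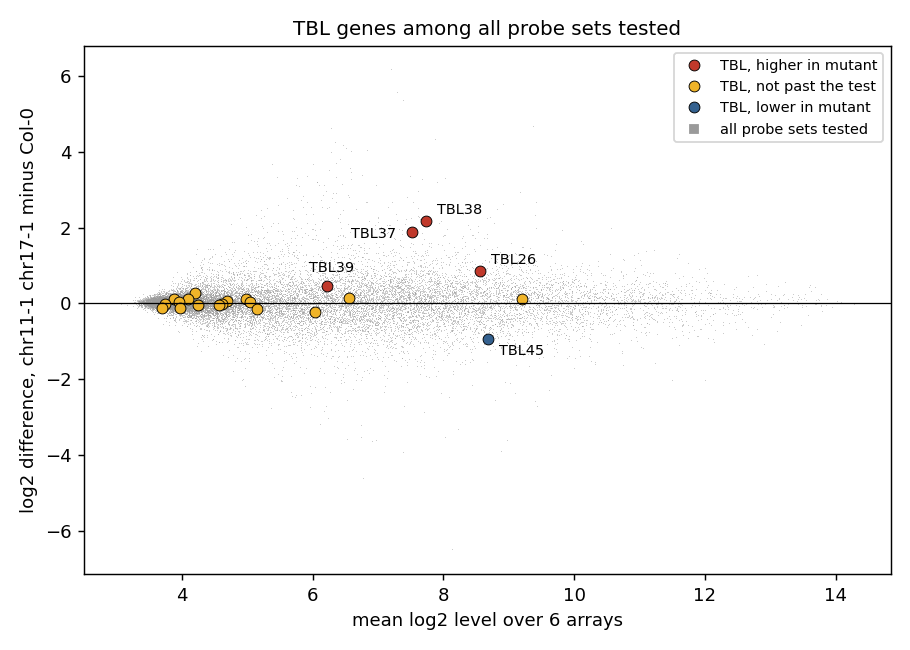
Log2 difference between chr11-1 chr17-1 and Col-0 (y axis, mutant minus wild type) against the mean log2 level over the 6 arrays (x axis) for all 22746 probe sets (grey) and the 22 TBL genes (large points). The 5 members that passed the test lie at mean levels of 6.22 to 8.68, and most of the others lie at the dim end.

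Other genes of wall polysaccharide synthesis were read from 8 lists, of which 5 held at least 1 measured and named gene. The lists of acetylation partners, secondary wall factors and lignin genes held none. The 8 lists have 165 names, some of them synonyms, so the 12 genes read do not stand for whole pathways. Of these 12, each with a probe set under a single gene name, 2 rose, 3 fell and 7 did not pass. Over all probe sets 28.6% passed, and over genes with a single name 25.6%. On the mannan side, CSLA01, a member of the family of glucomannan synthases, had 7.79, 8.02 and 8.05 in the mutant, against 5.64, 4.83 and 5.04 in wild type. It rose by a log2 difference of 2.78 (SE 0.18), or 6.88-fold (limma adjusted p = 2.01e-06), against 2.17 for TBL38. CSLA03, of the same family, had -0.09 and did not pass (limma adjusted p = 0.59).

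The CSLC family includes the glucan synthases of the xyloglucan backbone. Of its 5 genes measured, 1 rose, 2 fell and 2 did not pass, against 14.0% higher and 14.7% lower over all probe sets. CSLC6 rose by 0.73 (limma adjusted p = 0.000495). It had 6.45, 6.58 and 6.42 in the mutant, against 5.57, 5.91 and 5.77 in wild type. CSLC5 fell by 0.77 (limma adjusted p = 0.00239) and CSLC04 fell by 0.58 (limma adjusted p = 0.00197). CSLC04, the brightest of the 5, had 7.95, 7.92 and 7.66 in the mutant, against 8.33, 8.41 and 8.53 in wild type. CSLC12 had -0.11 and ATCSLC08 had -0.05, and neither passed. The xyloglucan acetyltransferase genes TBL22 and TBL27 were not analysed here.

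**Figure D4:**
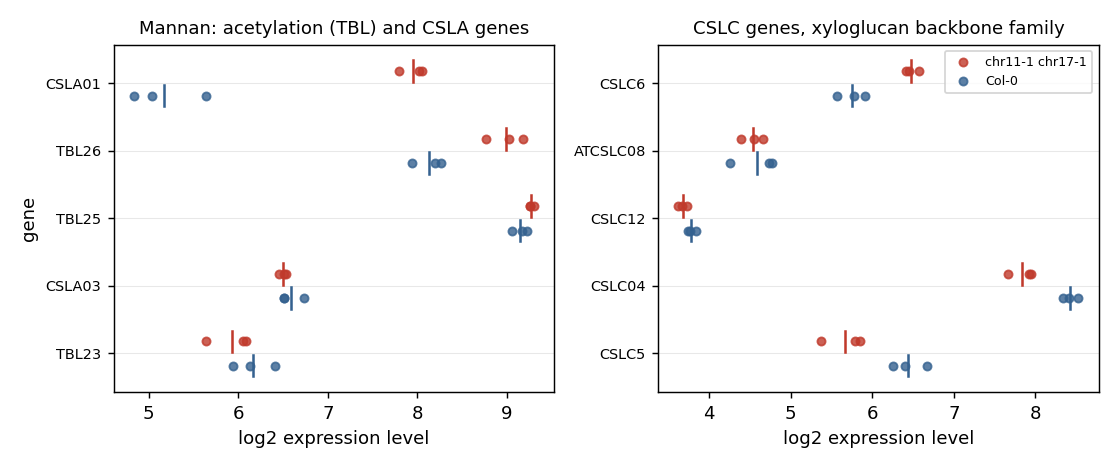
Log2 expression level (x axis) on each chr11-1 chr17-1 array (red, upper points of a row) and Col-0 array (blue, lower points) for the mannan acetyltransferase genes TBL23, TBL25 and TBL26 with CSLA01 and CSLA03 (left), and for 5 CSLC genes (right). Bars are means. CSLA01, TBL26 and CSLC6 lie higher and CSLC04 and CSLC5 lie lower in the mutant with no overlap, and passed the test. TBL25 (higher) and CSLC12 (lower) also show no overlap but did not pass.

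The xylan synthesis genes measured, GUT2 (IRX10) and IRX15, had log2 differences of 0.13 and 0.16 and did not pass limma (adjusted p = 0.367 and 0.313). The pectin methylesterase gene PME61 fell by 0.70, with 7.10, 6.89 and 6.33 in the mutant against 7.31, 7.49 and 7.62 in wild type (limma adjusted p = 0.012). The pectin synthesis family gene GAUT15 had 0.26 and did not pass (limma adjusted p = 0.0706). COB, a gene needed for oriented cellulose deposition in expanding cells, had -0.29 (limma adjusted p = 0.0918).

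Genes that mark leaf cell types were few here. Of a list of 6 trichome genes, only TRY had a probe set under a single gene name. TRY holds back leaf hair formation next to existing hairs, and it fell by 0.69 (limma adjusted p = 0.00631). Its log2 level was 4.997, 5.07 and 5.55 in the mutant, against 6.02, 5.999 and 5.67 in wild type. The antenna gene LHCB4.2 was likewise the only one of 6 listed mesophyll genes with such a probe set. It had 13.53, 13.43 and 13.53 in the mutant, against 12.96, 12.98 and 12.90 in wild type, and rose by 0.54 (limma adjusted p = 0.000747). The other 5 marker genes measured, of guard cells, root hairs, the meristem and anthers, did not pass. None of the xylem, phloem or epidermis genes on the lists was measured and named here. The part of the TRY and LHCB4.2 changes in the TBL differences was not tested.

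Genes near the 5 changed members were read as well, a choice made after those members were known. On each side of a member, the nearest gene in gene order with a probe set under a single gene name was taken, 10 in all. Of these, 6 were next to the member and the others lay 2 to 6 genes away. In all, 4 of the 10 passed the test, each in the direction of its TBL neighbour. Over all genes with a single name 25.6% passed in either direction. Over all probe sets 14.0% were higher and 14.7% lower. Both neighbours of TBL38 rose, by 0.56 (2 genes away) and 0.79, while those of TBL37 had -0.09 and 0.05. Among those of TBL26, 1 rose by 0.57, and among those of TBL45, 1 (2 genes away) fell by 0.79. Neither neighbour of TBL39 passed, with differences of 0.09 and -0.09.

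One array stood apart in a control: 25S ribosomal RNA gave 8.90 on mutant replicate 1, 10.85 on mutant replicates 2 and 3, and 10.32 to 10.49 on the wild-type arrays. Without mutant replicate 1, TBL38, TBL37, TBL26, TBL39 and TBL45 all still passed limma in the same direction, and no other member did.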

How the data were processed

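Leaf RNA was hybridised to single-colour Affymetrix ATH1 arrays, 1 sample per array. The authors deposited 1 log2 value for each probe set and array. The submitters' processing notes name RMA and Partek. How background was corrected and how probes were normalized and summarized is not given in the sources used here. Values ran from 2.96 to 14.32 and were not changed. Background was not measured, so folds of dim genes are of array signal.

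Of 22810 probe sets, 64 controls were left out. All 22746 others entered a single two-sided fit in limma 3.58.1 under R 4.3.3, with lmFit and a plain eBayes prior. Differences are mutant minus wild type. P-values were adjusted over all of them by Benjamini and Hochberg's method and called below 0.05. The fit was tested on simulated data in which 200 probe sets were changed. Gene names are those of the probe table, and all 22 members were also found in the TAIR10.1 gene table, used for names and gene order. Python 3.11.15, pandas 2.3.3 and matplotlib 3.10.9 made the tables and figures.

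All 22 members are named. From each other list, up to 4 members past the test were named, or the 2 largest differences where none passed, and further members were added. An epidermis entry, FDH, was dropped because that symbol belongs to another gene here. The members and lists were chosen with earlier results of these data known, and each gene's role is background knowledge. Replicate numbers did not pair the arrays: deviations from the group means had correlations of -0.30, -0.17 and -0.17 for same-numbered arrays. Alternatives changed 1 choice at a time: the scaling (quantile, or each array's median), the probe sets kept (without the dimmest 30%, or without cross-hybridisation suffixes), the prior (trended and robust), array weights, a replicate block, the arrays kept, and a threshold of 0.01.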

Additional observations from a re-analysis of the deposited data

How the results depend on the processing

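The counts of 4 TBL members higher and 1 lower were the same under all 14 alternatives, and TBL38, TBL37, TBL26, TBL39 and TBL45 kept their direction and their calls in each. The highest adjusted p among these 5 under an alternative, each judged at 0.05, was 0.0319, for TBL39. With the replicate block 2768 probe sets were higher and 2914 lower, against 3178 and 3333 without it, and no call among the members changed; the numbers do not pair the arrays. Over all settings at 0.05 between 5313 and 6893 probe sets passed. Of 280 member values recomputed, 270 stayed on the same side of zero and of the threshold and 10 changed sign, all in members that did not pass and all on leaving out 1 array. On leaving out each array in turn, log2 differences ran from -0.0027 to 0.27 for TBL28, from -0.062 to 0.18 for TBL41, from -0.023 to 0.12 for TBL20, from -0.026 to 0.083 for TBL36, from -0.093 to 0.043 for TBL35, from -0.11 to 0.0063 for TBL42 and from -0.15 to 0.047 for TBL16. For ATCSLC08 they ran from -0.22 to 0.036. GAUT15 passed with quantile normalization (limma adjusted p = 0.0398), and COB with a trended robust prior (0.0348) or with mutant replicate 3 left out (0.0245). PME61 missed the threshold of 0.01. It passed in every setting judged at 0.05, with a highest limma adjusted p of 0.0496 on leaving out wild-type replicate 3. The median over the members ran from 0.035 to 0.10, with the highest value without the dim probe sets. The 5 dimmest members dropped out in that setting, and TBL32 with the cross-hybridisation suffixes. Averaging several probe sets of a gene was not run, since each member has 1. Signal over background was not measured, which limits what the dim members can show.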
